A study of Mus musculus with 2 samples.

Results

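Egr1, Egr3, Fos, Fosb, Jun, Junb, Atf3, Nr4a1, Nr4a2 and Nr4a3 encode transcription factors that many cells make within minutes of a stimulus, before any new protein is needed. These 10 genes, of 25909 in the count matrix, were chosen from their measured levels by diet and genotype in the same cells described here, so what follows is a description of them and not a test. They were followed through classes of liver myeloid cells set by marker genes, in mice on a normal diet (ND) or on CDA-HFD, a high-fat diet without choline and with its amino acids set, which leads to fatty liver, inflammation and fibrosis.

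Immediate early genes are kept ready for rapid transcription and are switched on through pathways that end on serum response factor, CREB and NF-kappaB, and their RNAs are short-lived. Fos-family and Jun-family proteins pair into AP-1, the Egr proteins bind GC-rich promoter sites and are restrained by Nab corepressors, and the Nr4a proteins are orphan nuclear receptors, of which Nr4a1 is needed for the patrolling Ly6Clo monocyte. In liver macrophages and neutrophils such genes respond to damage, lipids and microbial products, and they also respond to the enzymes and warming used to take a liver apart.

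The study took liver leukocytes from 4 mice, 1 per group, carried the 4 sorted cell suspensions under separate hashtags (A951 to A954) into a pooled capture, and sequenced their polyadenylated RNA. A951 was the ND-fed Egr2fl/fl mouse and A952 the ND-fed Lyz2Cre/+.Egr2fl/fl mouse, while A953 and A954 were the CDA-HFD-fed mice of these genotypes in the same order. All 4 mice carried Egr2 alleles flanked by loxP sites. In the Lyz2Cre/+.Egr2fl/fl mice, called Lyz2-Cre mice from here on, Cre made from the Lyz2 locus deletes Egr2 in granulocytes, monocytes and macrophages, while the Egr2fl/fl mice, called controls, had no Cre. Per the study's methods male mice were fed CDA-HFD from between 6 and 12 weeks of age, and the cells were taken after 7 weeks of the diet. The sort kept CD45.2-positive, CD11b-positive cells and left out cells with CD90.2, B220, NK1.1 or SiglecF, so it holds few lymphocytes and eosinophils.

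With 1 mouse in each group, a difference between groups and a difference between individual mice cannot be told apart, and neither can the deletion of Egr2 and the presence of Cre. No replicate error exists, so no test was made. After 1392 doublets named in the deposited cell names (8.29% of 16786 barcodes) and 10 cells over 25% mitochondrial counts were left out, 15384 cells remained, with 0 barcodes shared between mice. The ND control gave 1723 cells and 32029953 counts, the ND Lyz2-Cre mouse 1590 cells and 27840300 counts, the CDA-HFD control 5885 cells and 85227192 counts, and the CDA-HFD Lyz2-Cre mouse 6186 cells and 90124521 counts. Fewer cells were loaded from the ND mice by design, 3000 from each against 9000 from each CDA-HFD mouse. A cell held between 3115 and 86395 counts, with medians of 16459, 15864.5, 13168 and 13476.5 in the same order of mice.

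Each cell was put in a class by the number of marker genes it showed, with none of the members among the markers. Kupffer-like cells were 702 and 762 of the cells of the ND control and ND Lyz2-Cre mice and 4 and 9 in the CDA-HFD mice. The hLAM-like class, with markers of hepatic lipid-associated macrophages such as Spp1 and Gpnmb, had 0 and 3 cells on ND and 503 and 347 on CDA-HFD. Thus neither of these classes allows a comparison by diet. A class was compared where both mice gave at least 50 cells, which held for 10 classes between the CDA-HFD mice, 7 between the ND mice, 7 by diet in the controls and 6 by diet in the Lyz2-Cre mice. A label of a class is a label of its markers: the leading genes of the moKC-like class, named for monocyte-derived Kupffer cells, held as many hLAM markers as moKC markers, 2 of each, and the other macrophage-like class led with 1 general macrophage marker, Ms4a7, behind Tmem119 and Olfml3.

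Egr2, the gene deleted in the Lyz2-Cre mice and a relative of Egr1 and Egr3, served as a check of the labels. Over all cells it stood, in counts scaled to the same total for each mouse (CPM), at 13.3 in the ND control, 5.85 in the ND Lyz2-Cre mouse, 49.4 in the CDA-HFD control and 18.2 in the CDA-HFD Lyz2-Cre mouse, lower in the Lyz2-Cre mouse on either diet. Within classes on CDA-HFD the Lyz2-Cre mouse had 0.0813 times the control's Egr2 level in moKC-like cells, 0.115 times in neutrophil-like cells and 0.237 times in both hLAM-like and other macrophage-like cells. Cd209a DC-like cells, a kind of dendritic cell, were at 0.867 times (50.9 against 58.7 CPM), and Ccr7 DC-like cells, at 11 and 15 counts under the limit of 100 used for comparisons, were at 0.988 times (0.410 to 2.30). The sources do not say whether the 3′ tags that were counted lie in the deleted part of the gene, so a count of Egr2 in a Lyz2-Cre mouse does not show intact Egr2.

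A level is the CPM of the summed counts of all cells of a mouse and class. Intervals are exact 95% Poisson intervals for levels, exact Clopper-Pearson intervals for shares of cells and exact binomial intervals for ratios, and all of them cover counting error only, not the variation between mice. Those for levels and ratios treat every count as independent and leave out the variation between cells of a class. Counts of the members were concentrated in part of the cells, so these intervals are narrower than that variation would make them. Overlap, or its absence, refers to these intervals alone. No class here should lack these genes, so the share of cells that free RNA alone would give could not be set. Jun overlaps the antisense transcript Junos and Junb overlaps Prdx2 on the opposite strand, both of them counted as genes of their own, and Atf3 overlaps Gm24748, which is not in the matrix. Whether counting kept the strand is not stated, so counts of Jun and Junb may include transcripts of their neighbours.

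Over all cells, every member was higher in each CDA-HFD mouse than in each ND mouse. Fos was at 286 CPM in the ND control, 231 in the ND Lyz2-Cre mouse, 1049 in the CDA-HFD control and 1222 in the CDA-HFD Lyz2-Cre mouse. Atf3 was at 98.9 and 96.9 CPM on ND and 1045 and 872 on CDA-HFD, and Nr4a1 at 63.1 and 52.1 on ND and 355 and 292 on CDA-HFD, each time with the control first. The mice of a diet lay close together and the diets did not overlap for these 3 genes. Since the diets also differ in which classes the cells belong to, the levels below are given class by class.

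Egr1, the zinc-finger factor induced in most cells by growth factors and stress, was highest in neutrophil-like cells on CDA-HFD, at 717 CPM in the control and 562 in the Lyz2-Cre mouse. Cd209a DC-like cells came next at 361 and 352 CPM and proliferating cells after them at 218 and 149.7. None of these 3 classes overlapped its neighbours in the order within a mouse. Other macrophage-like cells had 114 and 103 CPM, the Ccr2-positive rest, cells with Ccr2 that passed no gate, 101 and 97.1, and moKC-like cells 101 and 102. Ly6Clo monocyte-like cells had 75.4 and 50.04 CPM, Ly6Chi monocyte-like cells 75.1 and 49.8, and hLAM-like cells 70.2 and 94.3. Ccr7 DC-like cells, the migrating form of dendritic cell, were lowest at 56.1 and 17.0 CPM, overlapping hLAM-like and Ly6Clo monocyte-like cells in the control. Intervals of the classes from other macrophage-like to moKC-like overlapped in both mice, as did those of both kinds of monocyte, and hLAM-like cells overlapped the monocytes in the control and the classes above them in the Lyz2-Cre mouse. On ND the levels were 193 and 286 CPM in neutrophil-like cells, 162 and 284 in Cd209a DC-like cells, 220.4 and 269 in other macrophage-like cells and 49.4 and 37.3 in Kupffer-like cells, with Ly6Clo monocyte-like cells lowest at 10.99 and 9.37. The 22 and 43 neutrophil-like cells on ND with at least 90% of their hashtag counts on their own hashtag had lower levels, 137 and 165 CPM. On ND, therefore, other macrophage-like cells stood among the highest, in contrast to their middle place on CDA-HFD. A count of Egr1 was seen in 57.4% of neutrophil-like cells of the CDA-HFD control and 50.1% of those of the Lyz2-Cre mouse, or 52.4% and 45.1% after every cell was thinned to 3000 counts.

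Egr3, a relative of Egr1 induced in lymphocytes and neurons, had its highest levels in the same classes as Egr1 on CDA-HFD. Neutrophil-like cells had 116 and 57.0 CPM, Cd209a DC-like cells 52.4 and 53.7, proliferating cells 23.4 and 21.6 and the Ccr2-positive rest 15.0 and 14.1. In the control neutrophil-like cells stood clear of Cd209a DC-like cells, while in the Lyz2-Cre mouse their intervals overlapped. All other classes lay between 0.384 and 6.17 CPM. Ly6Clo monocyte-like cells had 5.61 and 3.95 CPM, Ccr7 DC-like cells 4.72 and 4.24, Ly6Chi monocyte-like cells 3.999 and 6.17, other macrophage-like cells 3.69 and 5.17, hLAM-like cells 3.08 and 4.67, and moKC-like cells, the lowest, 2.44 and 0.384. Neighbours among them overlapped in the control, and in the Lyz2-Cre mouse moKC-like cells, with 1 count, overlapped Ccr7 DC-like cells alone. On ND the gene was highest in other macrophage-like cells of the control (55.9 CPM) and in Cd209a DC-like cells of the Lyz2-Cre mouse (41.0 CPM), was at 2.27 and 1.88 CPM in Kupffer-like cells, and had no count in Ly6Clo monocyte-like cells of either mouse, where 3 counts would be 2.996 and 5.62 CPM. The 28 counts behind 19.5 CPM in Ly6Chi monocyte-like cells of the ND control came from 0.952% of 105 cells, a single cell.

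Fos, a partner of Jun proteins in AP-1, was high in nearly every class on CDA-HFD. Neutrophil-like cells led with 1453 CPM in the control and 1846 in the Lyz2-Cre mouse, ahead of Ly6Chi monocyte-like cells with 1376 and 1512. Other macrophage-like cells had 1187 and 1279 CPM, the Ccr2-positive rest 1109 and 1334 and Ly6Clo monocyte-like cells 1112 and 1257. These 5 classes all exceeded the remaining 5 in both mice. The remaining levels were 967 and 848 CPM in moKC-like cells, 956 and 1094 in hLAM-like cells, 909 and 1029.9 in Cd209a DC-like cells and 594 and 801 in proliferating cells. Ccr7 DC-like cells were lowest, at 290.5 and 251 CPM, and did not overlap the class above them in either mouse. On ND neutrophil-like cells were already at 1535 and 1168 CPM and other macrophage-like cells at 761 and 1033, whereas the other classes of at least 50 cells lay at or below 357 CPM, with Kupffer-like cells at 231 and 132. So neutrophil-like and other macrophage-like cells were high on both diets, and the monocyte-like classes on CDA-HFD only. A Fos count was found in 91.1% and 87.8% of Ly6Chi monocyte-like cells on CDA-HFD (77.6% and 76.3% thinned) and in 72.4% and 61.5% on ND (51.4% and 46.2% thinned).

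Fosb, another Fos-family protein, was spread evenly over the classes of the CDA-HFD Lyz2-Cre mouse, where the highest level was 1.85 times the lowest. Cd209a DC-like cells led in both CDA-HFD mice with 367 CPM in the control and 320.1 in the Lyz2-Cre mouse, clear of the next class each time. In the control moKC-like cells followed at 294 CPM, other macrophage-like cells at 279, Ccr7 DC-like cells at 270.0, the Ccr2-positive rest at 252 and hLAM-like cells at 243, all with overlapping neighbours, and then proliferating cells at 214, Ly6Clo monocyte-like cells at 199, Ly6Chi monocyte-like cells at 172 and neutrophil-like cells at 154. In the Lyz2-Cre mouse other macrophage-like cells had 254 CPM and the Ccr2-positive rest 238, and the other 7 classes lay between 173 and 194 CPM with overlapping intervals. The order below Cd209a DC-like cells thus differed between the mice, with moKC-like cells near the top in the control and among the lower 7, at 176 CPM, in the Lyz2-Cre mouse. On ND the highest level was in other macrophage-like cells, at 109 and 95.9 CPM, and Kupffer-like cells had 20.7 and 19.0. A Fosb count was present in 66.9% and 58.1% of Cd209a DC-like cells on CDA-HFD (42.8% and 37.0% thinned) and in 29.5% and 30.6% on ND (10.5% and 10.6% thinned).

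Jun, the core AP-1 subunit, was detected in more than 52% of the cells of each of the 10 classes on CDA-HFD. Ly6Chi monocyte-like cells (826 CPM) and Ly6Clo monocyte-like cells (802 CPM) led in the CDA-HFD control with overlapping intervals, followed by Cd209a DC-like cells at 740.3. In the Lyz2-Cre mouse Cd209a DC-like cells led alone at 710.4 CPM, ahead of neutrophil-like cells at 578, Ly6Chi monocyte-like cells at 576 and Ly6Clo monocyte-like cells at 537. The leading class therefore differed between the CDA-HFD mice. The Ccr2-positive rest had 667 and 535 CPM, other macrophage-like cells 657 and 465, moKC-like cells 600.3 and 348, hLAM-like cells 589.5 and 402 and proliferating cells 461 and 401. Neutrophil-like cells of the control had 556 CPM, and Ccr7 DC-like cells were lowest in both mice at 303 and 276 without overlap. On ND other macrophage-like cells led with 554 and 477 CPM, Cd209a DC-like cells had 381 and 402, Ly6Clo monocyte-like cells 321 and 405, and Kupffer-like cells 223 and 199.6. A count was present in 85.5% and 79.5% of Ly6Chi monocyte-like cells on CDA-HFD and in 66.2% and 56.9% after thinning.

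Junb, a Jun-family protein that also dampens Jun, was far higher in neutrophil-like cells than in any other class, in all 4 mice. Neutrophil-like cells had 815 CPM in the ND control, 974 in the ND Lyz2-Cre mouse, 1555 in the CDA-HFD control and 1209 in the CDA-HFD Lyz2-Cre mouse. The next class had 243 and 293 CPM on ND (other macrophage-like) and 597 and 473 on CDA-HFD (Ly6Chi monocyte-like), with no overlap in any mouse. Ly6Clo monocyte-like cells had 459.9 and 355 CPM on CDA-HFD, the Ccr2-positive rest 439.5 and 352, Cd209a DC-like cells 420.2 and 395, other macrophage-like cells 359.6 and 318, moKC-like cells 345 and 199, hLAM-like cells 342 and 283 and Ccr7 DC-like cells 331 and 345. In the control the intervals of the last 4 overlapped from neighbour to neighbour. Proliferating cells were lowest on CDA-HFD at 248 and 167 CPM, and Kupffer-like cells stood at 89.0 and 62.7 CPM on ND. After thinning, 89.3% and 83.0% of neutrophil-like cells on CDA-HFD kept a Junb count (92.8% and 87.0% before).

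Atf3, an ATF/CREB factor of stress responses that restrains inflammatory genes in macrophages, was at or above 458 CPM in each of the 10 classes of both CDA-HFD mice. In the control Ly6Chi monocyte-like cells (1357 CPM), neutrophil-like cells (1324), Cd209a DC-like cells (1267) and Ly6Clo monocyte-like cells (1232) overlapped from neighbour to neighbour. In the Lyz2-Cre mouse the same 4 classes led in another order, with neutrophil-like cells at 1262 CPM, Cd209a DC-like cells at 1157, Ly6Chi monocyte-like cells at 1053 and Ly6Clo monocyte-like cells at 991, and none of them overlapped. Below them both mice had the same order of the Ccr2-positive rest (1049 and 899 CPM), hLAM-like cells (906 and 729), other macrophage-like cells (866 and 707) and moKC-like cells (804 and 610.1). Ccr7 DC-like cells (606 and 458) and proliferating cells (578 and 506) closed the order and overlapped in each mouse. On ND the highest levels were in other macrophage-like cells, 340.4 and 512 CPM, and neutrophil-like cells, 332 and 309, while Kupffer-like cells had 64.5 and 62.0. No class of an ND mouse reached the level of its counterpart on CDA-HFD. A count of Atf3 was present in 89.1% and 83.1% of Ly6Chi monocyte-like cells on CDA-HFD (75.7% and 66.9% thinned) and 62.9% and 46.2% on ND (35.2% and 27.7% thinned).

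Nr4a1, the receptor needed for Ly6Clo monocytes, was highest in Ly6Clo monocyte-like cells of both ND mice, at 397 CPM in the control and 396 in the Lyz2-Cre mouse. The next class on ND stood at 128 CPM (neutrophil-like, control) and 131 CPM (other macrophage-like, Lyz2-Cre), with no overlap. On CDA-HFD neutrophil-like cells moved to the top with 1068 and 685 CPM, ahead of Ly6Clo monocyte-like cells with 602 and 532 and Ly6Chi monocyte-like cells with 531 and 449. The first 5 classes, which go on with Cd209a DC-like cells (379 and 308 CPM) and the Ccr2-positive rest (316 and 279.7), had the same order and no overlap in both mice. Proliferating cells (215 and 135 CPM), other macrophage-like cells (192 and 148) and Ccr7 DC-like cells (181 and 139) overlapped, and so did moKC-like cells (127 and 90.6) and hLAM-like cells (119 and 108) at the bottom. Kupffer-like cells had 49.97 and 31.2 CPM on ND. A count was seen in 83.4% and 79.3% of Ly6Clo monocyte-like cells on CDA-HFD and in 73.7% and 69.7% on ND, or 67.1%, 62.1%, 54.2% and 53.0% when thinned.

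Nr4a2, the receptor that dopamine neurons depend on, had 5 classes at or above 81.9 CPM in the CDA-HFD control. These were Cd209a DC-like cells at 109 CPM, Ccr7 DC-like cells at 103, Ly6Chi monocyte-like cells at 100.5, Ly6Clo monocyte-like cells at 89.2 and the Ccr2-positive rest at 81.9, each overlapping its neighbour. In the Lyz2-Cre mouse Ly6Chi monocyte-like cells (81.3 CPM), Cd209a DC-like cells (80.8), Ccr7 DC-like cells (72.7) and the Ccr2-positive rest (64.5) formed the top group, and Ly6Clo monocyte-like cells had 50.2. Proliferating cells had 49.2 and 32.7 CPM, other macrophage-like cells 48.8 and 46.6, hLAM-like cells 34.5 and 28.7, neutrophil-like cells 23.6 and 17.8 and moKC-like cells 19.8 and 20.7, the last 2 overlapping in both mice. Neutrophil-like cells were therefore near the bottom for Nr4a2. On ND no class of at least 50 cells exceeded 32.7 CPM, the level of Ly6Chi monocyte-like cells of the control, and Kupffer-like cells had 3.64 and 2.74. Only 34.7% and 26.9% of Cd209a DC-like cells had a count on CDA-HFD (18.8% and 13.6% thinned).

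Nr4a3, the remaining receptor of the family, was set apart by Ccr7 DC-like cells, which had 374 CPM in the CDA-HFD control and 359 in the CDA-HFD Lyz2-Cre mouse. The next level was 81.9 CPM in the control (neutrophil-like) and 41.8 in the Lyz2-Cre mouse (Cd209a DC-like), far below and without overlap. Of the remaining levels, Cd209a DC-like cells of the control had 74.8 CPM, neutrophil-like cells of the Lyz2-Cre mouse 38.8, the Ccr2-positive rest 40.5 and 29.4, Ly6Chi monocyte-like cells 35.4 and 23.8, Ly6Clo monocyte-like cells 25.9 and 24.5, other macrophage-like cells 23.5 and 19.1 and proliferating cells 19.0 and 13.9. Monocyte-like and other macrophage-like intervals overlapped in the Lyz2-Cre mouse. The lowest were hLAM-like cells (12.5 and 6.11 CPM) and moKC-like cells (9.05 and 2.69), overlapping in each mouse. In ND mice the 20 Ccr7 DC-like cells of the control, too few to compare, had 90.02 CPM (interval 60.7 to 129), and the classes with at least 50 cells lay between 0 and 22.3 CPM. Of the Ccr7 DC-like cells on CDA-HFD, 67.6% and 70.4% had a count (46.3% and 50.9% thinned).

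**Figure D1:**
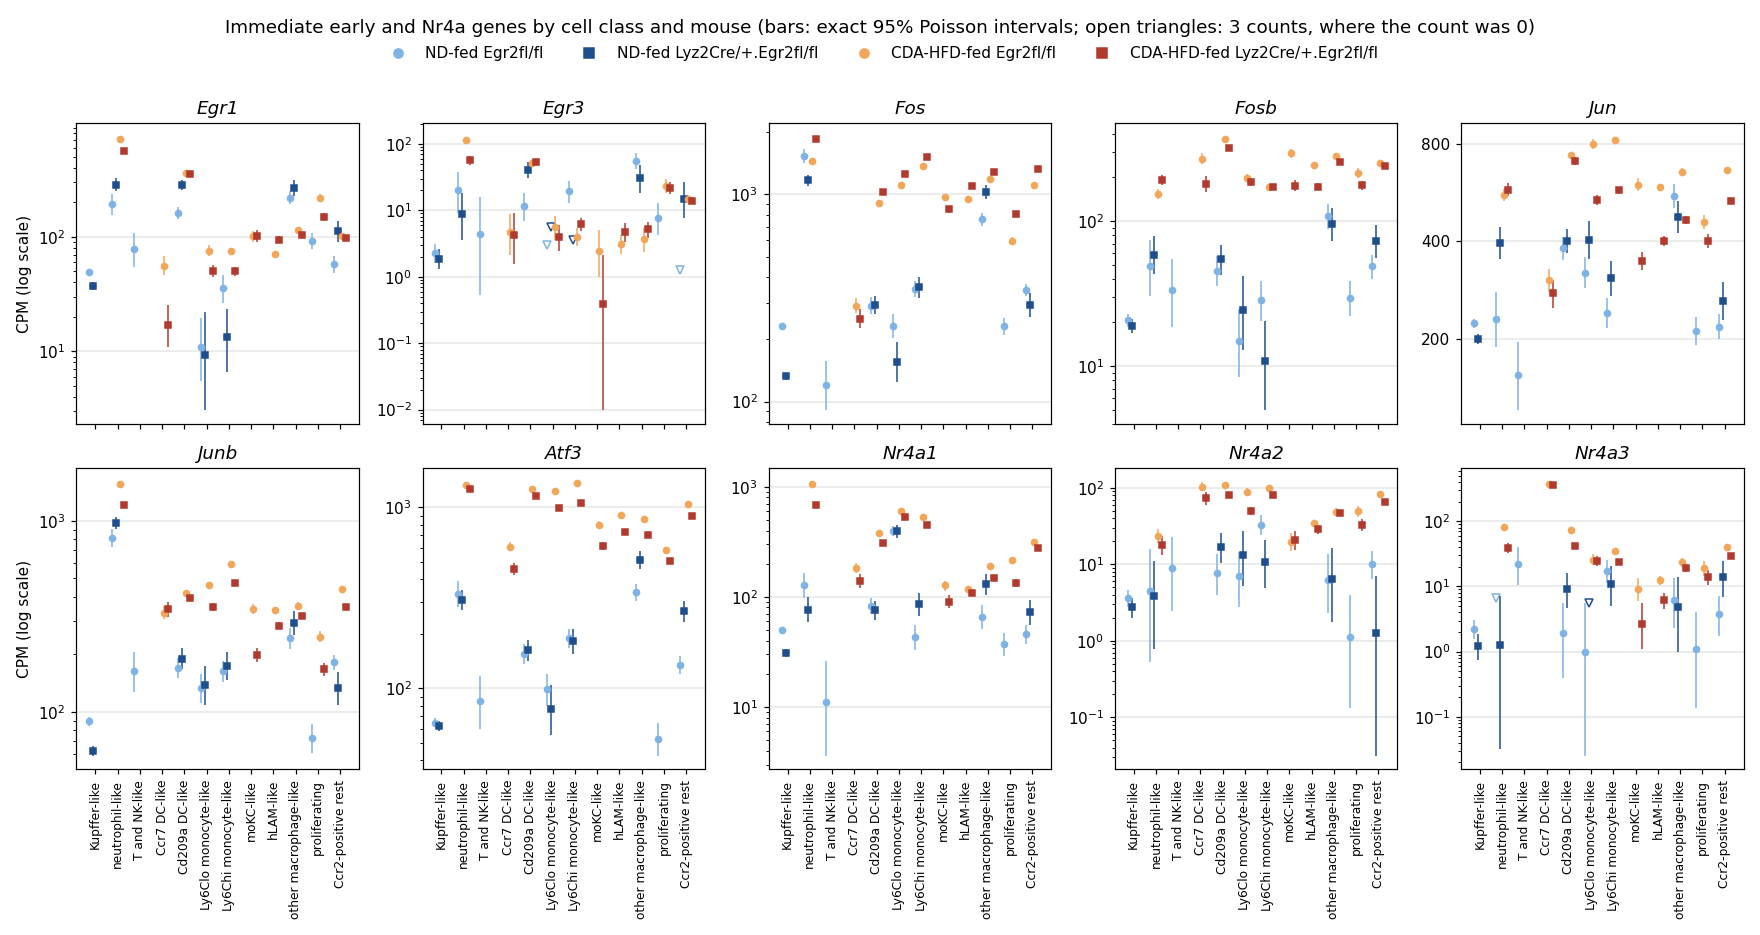
Level of each member in CPM (log scale) by cell class (horizontal axis), with 1 point per mouse and class of at least 50 cells, bars for exact 95% Poisson intervals and open triangles at the level of 3 counts where the count was 0. CDA-HFD points lie above ND points for most members and classes, while Egr1 and Egr3 in other macrophage-like cells lie the other way.

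Across the 10 classes shared by the CDA-HFD mice, the class with the highest level was the same in both for 7 of the 10 members, and differed for Jun, Atf3 and Nr4a2. Pearson correlations of log2(CPM + 1) between these mice over the 10 classes ran from 0.605 for Fosb to 0.983 for Nr4a1, as a description of points that share a capture and a sequencing run. Neutrophil-like cells were the highest class in both mice for Egr1, Egr3, Fos, Junb and Nr4a1, Cd209a DC-like cells for Fosb and Ccr7 DC-like cells for Nr4a3. Neutrophil-like cells were also the shallowest class, with median counts of 3793, 3956, 4124.5 and 4070 per cell from A951 to A954, so shares of cells from this class and others are comparable in their thinned form alone.

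The comparison by diet asks how the members differ between a fatty, inflamed liver and a liver on normal diet within like-marked cells. In the controls 62 of 64 tested pairs of member and class were higher on CDA-HFD, with a median ratio of 3.76 (6.83 in the 4 classes left when cells needed at least 90% of their hashtag counts on their own hashtag), and in the Lyz2-Cre mice 52 of 56 were, with a median of 3.33. Atf3, Nr4a2, Nr4a3 and Fosb had the largest ratios in the controls, and other macrophage-like cells had the smallest. Egr1 was lower on CDA-HFD in other macrophage-like cells of both genotypes, and so was Egr3, with fewer counts than the limit for a comparison. A pair was tested where both mice together held at least 100 counts of the gene, and members passed this limit mostly through their counts on CDA-HFD, so the counts of pairs describe the pairs that passed.

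A ratio of at least 1.5 in the higher direction was reached by 60 of 64 pairs in the controls, where 14.1% of all 45441 pairs of gene and class tested reached it, and by 42 of 56 in the Lyz2-Cre mice, where 18% of 41503 did. In the lower direction it was reached by 1 pair in each genotype, against 13.9% and 15.7% of all pairs. The median ratio over all tested pairs of gene and class was 0.982 and 0.989. Since the members were chosen with the diet difference known, these counts are not evidence for it. TMM scaling, which sets most genes level, would raise the ratios by diet by between 0.06 and 0.28 on the log2 scale, depending on the class.

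In Ly6Clo monocyte-like cells Atf3 stood at 98.9 CPM in the ND control and 1232 in the CDA-HFD control, a ratio of 12.5 (10.2 to 15.4), while the Lyz2-Cre mice had 76.9 and 991 CPM, a ratio of 12.9 (9.49 to 17.99). In Ly6Chi monocyte-like cells the controls had 189 and 1357 CPM, 7.18 times (6.37 to 8.13), and the Lyz2-Cre mice 183 and 1053, 5.77 times (4.92 to 6.81). Both ND mice were low and both CDA-HFD mice high in these classes, and their intervals were far apart. Proliferating cells of the controls had a ratio of 10.996, Cd209a DC-like cells 8.19 in the controls and 7.12 in the Lyz2-Cre mice, the Ccr2-positive rest 7.79 and 3.38, and neutrophil-like cells 3.99 and 4.08. The smallest ratios were in other macrophage-like cells, 2.54 and 1.38. The median over classes was 7.79 in the controls and 4.92 in the Lyz2-Cre mice, with Atf3 higher on CDA-HFD in 7 of 7 and 6 of 6 classes.

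Fos differed by diet most in Ly6Clo monocyte-like cells, with 232 and 1112 CPM in the controls (4.80 times, 4.21 to 5.50) and 156 and 1257 CPM in the Lyz2-Cre mice (8.08 times, 6.51 to 10.2). In Ly6Chi monocyte-like cells the ratios were 3.93 and 4.24, in Cd209a DC-like cells 3.13 and 3.53, in the Ccr2-positive rest 3.20 and 4.56, in other macrophage-like cells 1.56 and 1.24, and in proliferating cells of the controls 2.58. In neutrophil-like cells, which were high on both diets, the ratio was 0.947 (0.875 to 1.03) in the controls and 1.58 (1.47 to 1.70) in the Lyz2-Cre mice, and the former lies closer to 1 than the shift that TMM would make in this class (0.28 on the log2 scale), so its direction turns under that scaling. It also turns in neutrophil-like cells with at least 90% of their hashtag counts on their own hashtag, where the 22 cells of the ND control had 992.8 CPM of Fos and the 293 of the CDA-HFD control 1425. Fosb was higher on CDA-HFD in each of 7 and 6 classes, with median ratios of 6.05 (5.04 to 11.02 under the alternatives tried) and 4.57 (4.49 to 7.15). Its largest were 13.3 in Ly6Clo monocyte-like cells of the controls (15.0 and 199 CPM) and, in the Lyz2-Cre mice, that of Ly6Chi monocyte-like cells (10.8 and 173 CPM, from 9 counts on ND, with an interval of the ratio of 8.41 to 35.04).

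The Jun family differed less. Jun had median ratios of 2.42 in the controls and 1.61 in the Lyz2-Cre mice, with its largest in Ly6Chi monocyte-like cells of the controls (240.4 and 826 CPM, 3.44 times) and in the Ccr2-positive rest of the Lyz2-Cre mice (262 and 535 CPM, 2.04 times). In other macrophage-like cells of the Lyz2-Cre mice it was level, at 0.977 (0.869 to 1.10), a ratio that TMM scaling would lift above 1. Junb had medians of 2.48 and 2.32, with 3.66 and 2.71 in Ly6Chi monocyte-like cells and 1.91 and 1.24 in neutrophil-like cells, and it was higher on CDA-HFD in all classes tested, though in other macrophage-like cells of the Lyz2-Cre mice its interval included 1 (1.09, 0.935 to 1.27).

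Nr4a1 was higher on CDA-HFD in every class tested, by different amounts, though in other macrophage-like cells of the Lyz2-Cre mice the interval included 1 (1.13, 0.904 to 1.43). Ly6Clo monocyte-like cells, its highest class on ND, had ratios of 1.51 (1.36 to 1.69) in the controls and 1.35 (1.17 to 1.55) in the Lyz2-Cre mice. Ly6Chi monocyte-like cells had 43.1 and 531 CPM in the controls, 12.3 times (9.59 to 16.1), and 86.5 and 449 CPM in the Lyz2-Cre mice, 5.20 times (4.12 to 6.65). Neutrophil-like cells had 128 and 1068 CPM in the controls, 8.31 times, and 76.7 and 685 CPM in the Lyz2-Cre mice, 8.93 times. On ND, then, Nr4a1 set Ly6Clo from Ly6Chi monocyte-like cells, and on CDA-HFD the levels of these classes lay closer together. Its medians over classes were 5.79 and 3.97.

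Nr4a2 and Nr4a3 had few counts on ND, so that the intervals of their ratios are wide. Nr4a2 had 12 counts (7.71 CPM) in Cd209a DC-like cells of the ND control and 912 (109 CPM) on CDA-HFD, a ratio of 14.1 (8.03 to 27.4), against 16.7 and 80.8 CPM in the Lyz2-Cre mice, 4.84 times (3.17 to 7.77). Nr4a3 in the same class had 3 counts (1.93 CPM) in the ND control and 628 (74.8 CPM) on CDA-HFD, 38.8 times (13.2 to 189), against 9.12 and 41.8 CPM, 4.59 times (2.59 to 8.96), in the Lyz2-Cre mice. In neutrophil-like cells Nr4a3 had 0 counts in the ND control against 299 on CDA-HFD, at least 12.3-fold higher with 3 counts standing for 0. Every tested class of either gene was higher on CDA-HFD in both genotypes. The median ratios of Nr4a2 were 10.4 in the controls and 7.28 in the Lyz2-Cre mice, and moved widely under the alternatives tried, from 6.05 to 20.3 and from 3.57 to 11.7. Those of Nr4a3 were 11.5 and 4.16 with the class at 0 counts on ND put at its bound, and ran from 7.45 to 16.1 and from 1.84 to 5.23.

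Egr1 and Egr3 did not go one way in all classes. Egr1 was higher on CDA-HFD in 6 of 7 classes of the controls, from 1.75 times in the Ccr2-positive rest to 6.87 times in Ly6Clo monocyte-like cells (10.99 and 75.4 CPM, interval 3.79 to 13.9). In the Lyz2-Cre mice it was higher in 4 of 6, from 1.24 times in Cd209a DC-like cells to 5.34 times in Ly6Clo monocyte-like cells, and in the Ccr2-positive rest its ratio of 0.859 had an interval that included 1 (0.695 to 1.07). Its median in the Lyz2-Cre mice was 1.60, and 1.36 to 3.53 under the alternatives tried. In other macrophage-like cells it went the other way: the controls had 220.4 CPM on ND and 114 on CDA-HFD, 0.516 times (0.442 to 0.603), and the Lyz2-Cre mice 269 and 103 CPM, 0.383 times (0.325 to 0.453). Both ND mice were high and both CDA-HFD mice low in this class, with no overlap. Egr3 in the same class was at 55.9 and 30.4 CPM on ND and 3.69 and 5.17 on CDA-HFD, under the limit of 100 counts in both genotypes. Where it was tested, Egr3 was 5.81 times (3.03 to 12.8) as high on CDA-HFD in neutrophil-like cells of the controls, from 9 counts on ND. In those of the Lyz2-Cre mice it was 6.37 times as high (3.03 to 16.1), from 7 counts. Cd209a DC-like cells had ratios of 4.53 in the controls and 1.31 in the Lyz2-Cre mice, the latter with an interval that included 1 (0.985 to 1.77). In the Ccr2-positive rest Egr3 was at least 11.8-fold higher (0 and 244 counts) in the controls and 0.934 times (12 and 253 counts, 0.525 to 1.83) in the Lyz2-Cre mice. The direction of its median in the Lyz2-Cre mice, 1.31, turned to 0.963 in cells with at least 90% of their hashtag counts on their own hashtag, in classes of at least 20 such cells, an alternative chosen after seeing the data. At the other end of the alternatives tried this median was 3.22.

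Other macrophage-like cells differed between the diets in more than the members. Their median counts per cell were 9707.5 and 9377 on ND and 18121 and 16831.5 on CDA-HFD, and 56.9% and 34.6% of them had at least 90% of their hashtag counts on their own hashtag on ND. In neutrophil-like cells this share was lower still, at 21.4% and 23.2% on ND and 35.7% and 34.4% on CDA-HFD, and there the cells with at least that share had 72.9 CPM of Egr3 in the ND control and 152.5 in the CDA-HFD control, closer together than in all cells of the class, and 5.51 and 71.2 in the Lyz2-Cre mice, further apart. Other macrophage-like cells of the ND control with at least that share had 251.9 CPM of Egr1 and the remaining ones 174.0, and in the ND Lyz2-Cre mouse the values were 276 and 262, all above the CDA-HFD levels. Ly6Clo monocyte-like cells, with the largest ratios for Fos, Fosb and Atf3 in the controls, also differed in depth, at 7444 and 6897.5 median counts on ND and 11039.5 and 11109 on CDA-HFD. The part of depth in the ratios of these classes was not tested. Summed levels of 11 heat shock genes, a sign of tissue dissociation, were 1.29 times as high on CDA-HFD in Ly6Clo monocyte-like cells of the controls and 0.878 times in the Lyz2-Cre mice, a sum in which Hsp90ab1 was the most abundant. Over the classes of the controls this ratio ran from 0.779 in neutrophil-like cells to 1.30 in Cd209a DC-like cells, where the members' medians were 3.72 and 4.56. In the Lyz2-Cre mice it ran from 0.825 in the Ccr2-positive rest to 1.06 in Cd209a DC-like cells, with members' medians of 2.96 and 3.81. Single heat shock genes went both ways in the controls, with a median of 1.11 over their pairs of gene and class. There 5 of 11 had a median ratio by diet of at least 1.5, among them Hspa1a at 10.3, Hspa1b at 11.4 and Hspb1, in 2 classes, at 6.92, and 5 lay below 1, with Hspa8 lowest at 0.680. In the Lyz2-Cre mice none of 10 had a median of at least 1.5, with Hspa1a at 1.32 and Hspa1b at 1.46. The part of heat shock or handling in the members' ratios by diet was not tested.

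**Figure D2:**
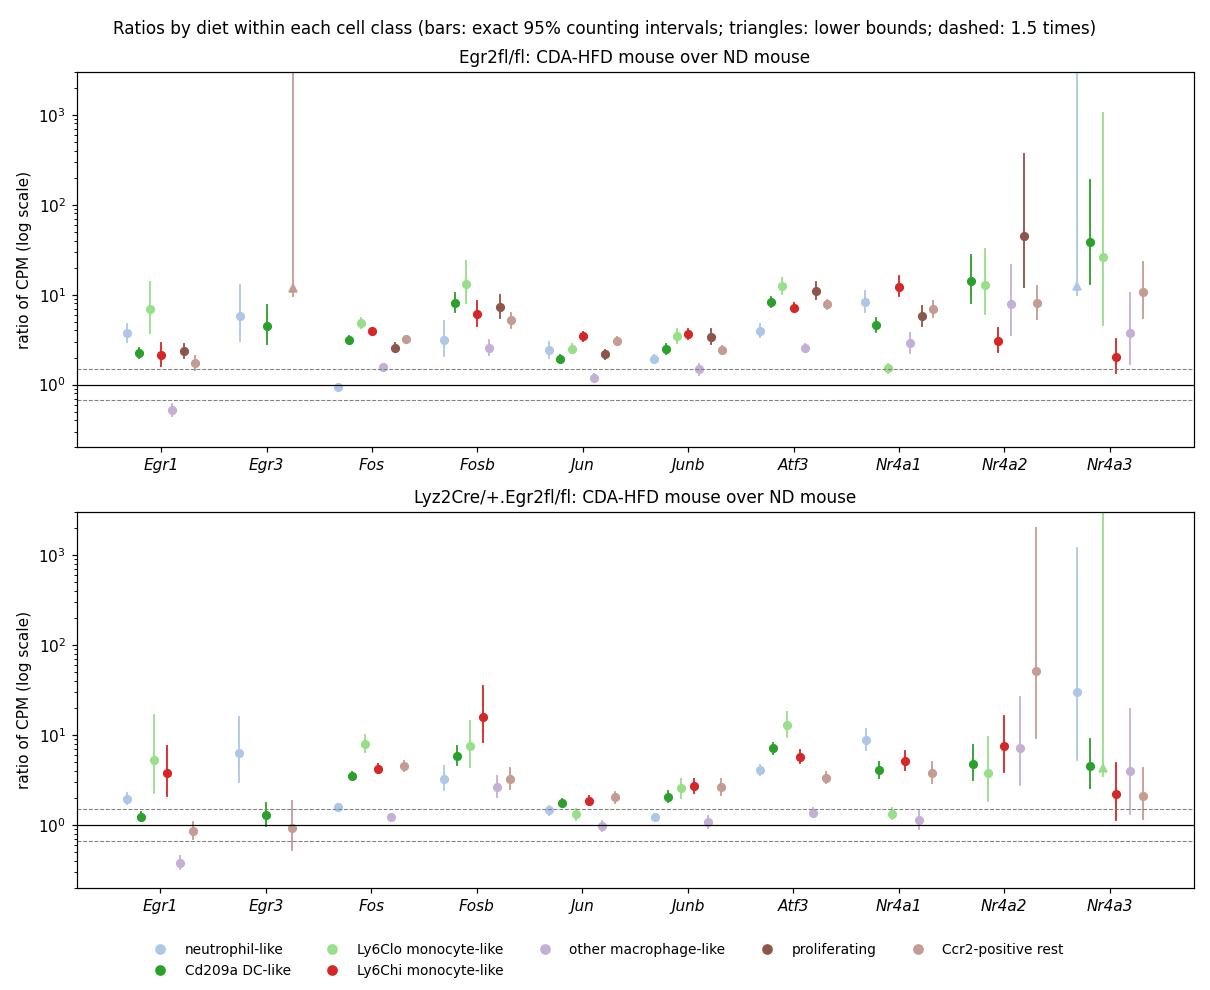
Ratio of CPM (log scale) of the CDA-HFD over the ND mouse for each member (horizontal axis) and cell class (color), in the controls above and the Lyz2-Cre mice below, with exact 95% counting intervals, triangles for lower bounds where the ND mouse had 0 counts and dashed lines at 1.5 times either way. Most points lie above 1, with Egr1 in other macrophage-like cells at 0.516 and 0.383 below it.

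The comparison by genotype on CDA-HFD asks what differs in these genes when Egr2 is deleted in Lyz2-expressing cells of the diseased liver. It uses the CDA-HFD mice that the comparisons by diet also use. The Lyz2-Cre mouse had modestly lower levels of most members: 77 of 94 tested pairs of member and class were lower, with a median ratio of 0.820 beside 1.02 over all genes tested. Atf3 and Nr4a1 were lower in all 10 classes and Nr4a3 in the 9 where it was tested. Fos was the exception, higher in 8 of 10 classes.

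A ratio of at most 1/1.5 was reached by 14 of the 94 pairs, where 3.7% of 74937 pairs of gene and class reached it, and a ratio of at least 1.5 by 1, where 4.58% did. Class medians of the members ran from 0.737 in moKC-like cells to 0.926 in Cd209a DC-like cells. TMM scaling would move these ratios by less than 0.1 on the log2 scale in each class.

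Nr4a1 fell short of the control most in proliferating cells (215 and 135 CPM, 0.627 times, 0.560 to 0.702) and neutrophil-like cells (1068 and 685 CPM, 0.641 times, 0.608 to 0.676). Its median over classes was 0.792 and its intervals lay below 1 in all 10. Nr4a3 was at 81.9 and 38.8 CPM in neutrophil-like cells (0.474 times, 0.380 to 0.588), at 12.5 and 6.11 in hLAM-like cells (0.489 times, 0.350 to 0.674) and at 74.8 and 41.8 in Cd209a DC-like cells (0.559 times, 0.489 to 0.638). In Ccr7 DC-like cells, its highest class, it was nearly level at 0.960 (0.855 to 1.08). Nr4a2 was lower in 9 of 10 classes, most in Ly6Clo monocyte-like cells (89.2 and 50.2 CPM, 0.563 times, 0.480 to 0.660), and the exception, moKC-like cells, had an interval that included 1 (1.04, 0.706 to 1.54).

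Jun and Junb were lower in 9 of 10 classes each, with medians of 0.755 and 0.797, and both had their lowest ratio in moKC-like cells. There Jun was at 600.3 and 348 CPM (0.579 times, 0.534 to 0.628) and Junb at 345 and 199 (0.577 times, 0.518 to 0.642). Both mice were well apart in this class for these genes. Fosb was lowest in the same class too, at 294 and 176 CPM (0.598 times, 0.533 to 0.671), and had 154 and 194 CPM in neutrophil-like cells (1.26 times, 1.12 to 1.42). Atf3 differed little from class to class, from 0.757 times in Ccr7 DC-like cells to 0.953 in neutrophil-like cells, with a median of 0.811 and an interval below 1 in every class.

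Fos was at 1453 and 1846 CPM in neutrophil-like cells, higher in the Lyz2-Cre mouse (1.27 times, 1.22 to 1.32), and at 594 and 801 CPM in proliferating cells (1.35 times, 1.27 to 1.43). It was lower in moKC-like cells (0.877 times, 0.829 to 0.928) and Ccr7 DC-like cells (0.863 times, 0.753 to 0.988), where most other members tested were lower too. The median over classes was 1.13, and no class reached 1.5 times. Within the AP-1 group the Fos difference and the Jun difference thus lay on opposite sides of 1 in most classes.

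Egr1 ran from 0.302 times in Ccr7 DC-like cells (56.1 and 17.0 CPM, 0.186 to 0.474, from 107 and 24 counts) to 1.34 times in hLAM-like cells (70.2 and 94.3 CPM, 1.22 to 1.48). In Ly6Clo and Ly6Chi monocyte-like cells the ratio was 0.663 in both, and the hLAM-like class was the one with an interval above 1. Egr3 passed the limit of 100 counts in 5 classes, and differed most in neutrophil-like cells, at 116 and 57.0 CPM (0.492 times, 0.410 to 0.588). In Ly6Chi monocyte-like cells it was at 3.999 and 6.17 CPM, 1.54 times (1.04 to 2.31), the single pair past 1.5 in the higher direction. Its median of 0.938 turned above 1 with a looser gate (1.01), with thinned cells (1.09) and with the mean of per-cell CPM (1.002), so no direction is given for Egr3 in this comparison.

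Heat shock genes moved with this result. Of 102 tested pairs of heat shock gene and class, 50 were lower by at least 1.5 times in the Lyz2-Cre mouse, 0 were higher, and the median ratio was 0.679. Summed over the 11 genes, with Hsp90ab1 or Hspa8 the most abundant in each class, the level was lower in the Lyz2-Cre mouse in all 10 classes, from 0.584 times in Ly6Clo monocyte-like cells (6150 and 3592 CPM) to 0.793 times in neutrophil-like cells (1329 and 1054 CPM). Hspa1a and Hspa1b, near-identical genes whose counts are hard to tell apart, had medians of 0.252 and 0.247, and Hspb1, in 4 classes, 0.153. Heat shock genes and immediate early genes both respond to tissue dissociation, and the part of handling in the members' lower levels was not tested. Each mouse was also prepared and tagged on its own, so preparation and genotype cannot be told apart.

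**Figure D3:**
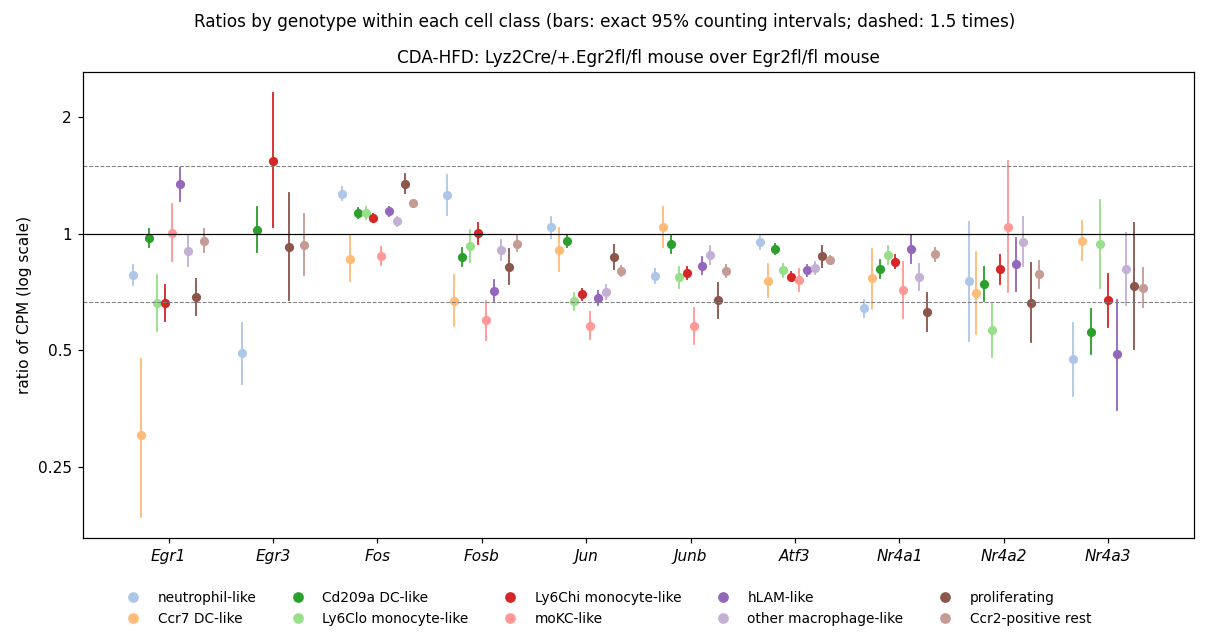
Ratio of CPM (log scale) of the Lyz2-Cre over the control mouse on CDA-HFD for each member (horizontal axis) and cell class (color), with exact 95% counting intervals and dashed lines at 1.5 times either way. Atf3 and Nr4a1 lie below 1 in each of 10 classes and Fos above 1 in 8 of 10.

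The comparison by genotype on ND asks the same without the disease, and it is the only one that holds Kupffer-like cells. It shares its mice with the comparisons by diet. Across classes there was no common direction, with 25 of 45 tested pairs higher and 20 lower in the Lyz2-Cre mouse and a median ratio of 1.04, which turned below 1 under some alternatives (0.897 at the lowest). A ratio of at least 1.5 was reached by 8 pairs beside 5.98% of all 27291 pairs of gene and class, and a ratio of at most 1/1.5 by 3 beside 6.16%. Egr3 and Nr4a3 reached 100 counts in no class. TMM scaling would shift ratios by 0.13 on the log2 scale in neutrophil-like cells and by -0.11 in other macrophage-like cells.

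In Kupffer-like cells, the largest class, all 8 members tested were lower in the Lyz2-Cre mouse, with a median of 0.754 beside 1.03 for all genes of the class. Fos was at 231 CPM in the control and 132 in the Lyz2-Cre mouse (0.574 times, 0.545 to 0.604), Nr4a1 at 49.97 and 31.2 (0.624 times, 0.560 to 0.695) and Junb at 89.0 and 62.7 (0.705 times, 0.652 to 0.762). Egr1 was at 49.4 and 37.3 CPM (0.755 times, 0.681 to 0.836) and Jun at 223 and 199.6 (0.895 times, 0.855 to 0.937). For these 5 genes the mice did not overlap, whereas Atf3 (64.5 and 62.0 CPM), Fosb (20.7 and 19.0) and Nr4a2 (3.64 and 2.74) had ratios with intervals that included 1. Summed heat shock genes in the same cells, with Hsp90ab1 the most abundant, were at 4373 and 3383 CPM, 0.774 times. Over the ND classes where they were tested, and not in Kupffer-like cells alone, Hspa1a and Hspa1b had median ratios of 1.60 and 1.87. The part of heat shock genes was not tested. Egr2 was at 4.72 and 0.969 CPM in Kupffer-like cells, 0.205 times (0.114 to 0.349).

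Elsewhere on ND members went in different directions within a class. The Ccr2-positive rest had the highest class median, 1.496, with Atf3 at 135 and 266 CPM (1.98 times, 1.65 to 2.36), Egr1 at 58.0 and 113 (1.95 times, 1.48 to 2.56) and Junb at 182 and 133 (0.733 times, 0.587 to 0.908). Nr4a1 was 2.01 times as high in Ly6Chi monocyte-like cells (43.1 and 86.5 CPM, 1.41 to 2.87), 1.98 times in other macrophage-like cells and 0.597 times in neutrophil-like cells (128 and 76.7 CPM, 0.409 to 0.872). Jun was 1.72 times as high in neutrophil-like cells (230.3 and 396 CPM, 1.37 to 2.17). In these classes the Lyz2-Cre mouse gave between 52 and 185 cells. The medians over classes of Fosb, Junb, Atf3, Nr4a1 and Nr4a2 each changed side of 1 under at least 1 alternative, so no direction is given for them on ND.

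Other early genes were counted from lists for the same comparisons, each gene by its median ratio over classes. By diet, 15 of 22 tested early regulators of RNA and kinases had a median of at least 1.5 in the controls and 12 of 22 in the Lyz2-Cre mice, with the phosphatase Dusp5 highest in both (5.40 and 6.03) and the ERK phosphatase Dusp6 lowest (0.7502 and 0.457), where 10.2% of all 9494 genes in the controls and 13.8% of 9434 in the Lyz2-Cre mice had such a median. Of early cytokines and enzymes 9 of 10 and 8 of 9 did, among them Cxcl2 (21.4 and 7.40), Ccl4 (6.14 and 13.98) and Ptgs2 (4.87 and 9.30), while Il6, tested in 1 class of the controls, was at 0.0103. Cxcl1 and Il1a, counted among them in the controls, were each tested there in 2 classes that went opposite ways. Their ratios were 0.0937 and 10.3 for Cxcl1 and 0.201 and 10.02 for Il1a. Among other AP-1 and ATF/CREB factors it was 5 of 9 and 4 of 9, with Maff at 5.64 and 3.12, Crem at 3.45 and 2.40, and Batf3, a dendritic cell factor, at 0.467 and 0.649. Serum response factor and its partners stayed nearer 1, with Elk3 alone past 1.5 in the controls (1.58) and none in the Lyz2-Cre mice. These genes were counted from lists chosen with earlier results known, so the counts are a description.

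On CDA-HFD none of the 22 early regulators had a median past 1.5 either way by genotype, where 2.19% of all 11052 genes did so higher and 1.64% lower, and the median over their pairs was 0.891. Maff (0.568), Elk1 (0.666, in 2 classes) and Il6 (0.496, in 1 class) were lower by at least 1.5 times, and no gene of these lists was higher. Among the Egr family and Nab corepressors, Nab1 was at 1.01 and Nab2 at 0.954, with Egr2 at 0.272 and Egr4 missing from the matrix. Dusp1, a phosphatase induced with Fos, was at 1.07, on the side of Fos. On ND 8 genes of these lists besides Egr2 had a median lower by at least 1.5 times, including Dusp2 (0.488, in 1 class) and Socs3 (0.609, in 3 classes), where 2.48% of all 10975 genes did so. Myc, tested in Kupffer-like cells alone, was at 1.66 and Hspa1a and Hspa1b had medians of 1.60 and 1.87, where 4.04% of all genes reached 1.5. Cxcl1 went both ways, with 6.11 times in Kupffer-like cells and, in other macrophage-like cells, 0 counts in the Lyz2-Cre mouse against 249 in the control.

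RNA of other liver cells was found with these cells and was not equal between diets. The hepatocyte list, 6 genes with Trf the most abundant, summed to 587 and 930 CPM in the ND mice and 287 and 267 in the CDA-HFD mice over all cells, and the endothelial list to 161 and 271 on ND and 37.4 and 58.1 on CDA-HFD. Stellate cell genes summed to at most 72.4 CPM, platelet genes to at most 2.44 and basophil genes to at most 3.16 in any mouse. The hepatocyte, stellate cell and endothelial lists were lower on CDA-HFD and the platelet list, at 0.624 and 0.754 CPM on ND and 1.03 and 2.44 on CDA-HFD, was higher, and their part in the ratios was not tested.

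Within a class the members were spread unevenly over cells, in the CDA-HFD mice and their classes of at least 100 cells and 100 counts of the gene. The 10% of cells with the most counts of a gene held a median of 34.9% of Junb counts, 38.9% of Fos counts, 41.7% of Jun counts and 41.7% of Atf3 counts. For the others this part of the cells held 76.3% of Egr1 counts, 77.4% of Nr4a2 counts, 91.7% of Egr3 counts and 93.5% of Nr4a3 counts. It was 54.3% for Fosb and 42.1% for Nr4a1. This share follows the level of a gene, since it is 100% wherever fewer cells than this part have a count, so it is not compared between genes. For Nr4a3 the lowest value was 35.8%, in Ccr7 DC-like cells, its highest class. On ND, single values could be higher than any on CDA-HFD, such as 64.7% for Atf3 and 94.8% for Egr1 in Kupffer-like cells of the Lyz2-Cre mouse and 54.1% for Junb in Ly6Clo monocyte-like cells of the control. Across the cells of a class, log-normalized counts of Fos and Fosb had a median Pearson correlation of 0.442 over 18 combinations of CDA-HFD mouse and class, Fosb and Atf3 0.425, Fos and Atf3 0.400 and Fosb and Nr4a1 0.396. These are correlations of cells from the same mouse that share depth and sparse counts, and pairs with weaker values are not described.

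Across 36 combinations of class and mouse, the profile of each member was compared with 9622 genes that reached 20 CPM in at least 1 of them, using log2(CPM + 1). The combinations share mice and a capture, and the likeness carries no statement about function or control. They also mix both diets, and the members were chosen with the diet difference known. Egr1 and Egr3 were each other's most similar gene (Pearson 0.826), followed for Egr1 by Eef2k (0.773) and Ccr1 (0.770) and for Egr3 by Btg2 (0.701) and Med13l (0.673). Atf3 was the most similar gene to Fos (0.866, ahead of Dusp1 at 0.864 and Osm at 0.860), to Fosb (0.901, ahead of Ifrd1 at 0.874 and Pim3 at 0.837) and to Jun (0.821, ahead of Zfand5 at 0.791 and Nr4a1 at 0.768). Junb was closest to Zfp36 (0.931), Nfkbid (0.914) and Pim1 (0.898), and Nr4a1 to Zfand5 (0.823), Nfkbiz (0.785) and Nfe2l2 (0.785). The profile of Nr4a2 was nearest to Ifrd1 (0.832), Pvr (0.795) and Grasp (0.771), and that of Nr4a3 to Maff (0.798), Gm45716 (0.780) and Plekhg2 (0.763).

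Most members were higher on CDA-HFD, and their promoters were searched for the motifs their own products and their inducers bind. RefSeq promoters of 300 bases in GRCm38.p6, from 250 bases before to 50 after the gene start, were at hand for 8 members, and not for Egr1 and Egr3. Both strands were searched for the Egr site GCGNGGGCG, the cyclic AMP response element TGACGTCA, the AP-1 site TGANTCA, the Nr4a site AAAGGTCA and the CArG box of serum response factor. The Egr site was in 3 of the 8, Fosb, Nr4a1 and Nr4a2, and in 5.55% of all 32851 promoters. The other letters were in none of the 8 windows, and in 1.79% (cyclic AMP response element), 7.81% (AP-1), 1.51% (Nr4a) and 1.63% (CArG box) of all promoters, which says nothing of sites with other letters or outside these windows. The promoters with an Egr site are printed 5′ to 3′ on the gene's strand, with the site in capitals, because Egr2 is the deleted gene and Egr1 and Egr3 are members. Fosb lies at chr7:19309996-19310295 on the minus strand, Nr4a1 at chr15:101266596-101266895 on the plus strand and Nr4a2 at chr2:57123954-57124253 on the minus strand, with the site starting 50, 60 and 74 bases before the gene start. A match is a description of letters and not of binding.
Fosb: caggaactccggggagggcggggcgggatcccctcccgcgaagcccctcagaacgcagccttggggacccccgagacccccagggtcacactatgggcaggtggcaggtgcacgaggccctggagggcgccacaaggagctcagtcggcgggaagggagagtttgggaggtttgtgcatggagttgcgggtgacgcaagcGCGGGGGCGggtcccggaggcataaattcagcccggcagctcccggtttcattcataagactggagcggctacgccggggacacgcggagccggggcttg
Nr4a1: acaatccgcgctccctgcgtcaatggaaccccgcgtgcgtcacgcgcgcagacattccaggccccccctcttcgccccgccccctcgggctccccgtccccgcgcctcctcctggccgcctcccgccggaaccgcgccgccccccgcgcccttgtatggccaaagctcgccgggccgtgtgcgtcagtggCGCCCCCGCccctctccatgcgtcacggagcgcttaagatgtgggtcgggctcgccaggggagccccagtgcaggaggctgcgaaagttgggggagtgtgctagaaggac
Nr4a2: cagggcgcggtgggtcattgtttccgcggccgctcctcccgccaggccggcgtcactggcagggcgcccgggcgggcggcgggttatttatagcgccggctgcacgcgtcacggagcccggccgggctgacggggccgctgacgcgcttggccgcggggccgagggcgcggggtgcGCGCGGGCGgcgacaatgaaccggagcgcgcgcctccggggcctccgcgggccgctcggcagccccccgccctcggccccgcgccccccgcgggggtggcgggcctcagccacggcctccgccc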

How the data were processed

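mRNA counts and hashtag counts of the cells of 4 mice, A951 to A954, were deposited as whole numbers, which the authors made by assigning trimmed and filtered reads to cell barcodes and to the GRCm38 transcriptome or the tags. The sources leave unstated if reads or molecules were counted. Cells were given to mice by their deposited names, doublets named there were left out, cells over 25% mitochondrial counts were left out, and 7 hashtag columns of no mouse were not used. Doublets within a mouse carry a single hashtag and were not removed, and cells that passed several gates were left out of the classes. Classes came from marker lists written by hand.

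Counts were summed by mouse and class and scaled to CPM. A pair of gene and class was tested in classes of at least 50 cells per mouse and with at least 100 counts over both mice, and 3 counts stood for 0 in bounds. Intervals are exact at 95% for independent counts, and their coverage was checked on simulated data drawn as independent counts. That check cannot show whether they hold for counts concentrated in few cells, as those of the members are. Cells were thinned to 3000 counts, and 0 cells were too shallow for this. The precision of a class follows its counts, and depth per mouse is given in the report. No paired analysis was possible because each group is 1 mouse.

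The members and lists were chosen with earlier results of these data known. The 10 members, Egr2, the genes of the lists past the fold of 1.5 in a comparison and the 3 genes most similar to each member were named by a written rule, and Nab1, Nab2, Dusp1, Dusp6, Hsp90ab1, Hspa8, Trf and markers of classes were named after their values were seen. Other choices tried were stricter and looser gates, per-cell CPM, TMM, a 10% mitochondrial limit, cells with at least 90% own hashtag, cells without the 5% deepest, thinned cells and cells without the 1% highest in a member. For the share of genes past the fold, 500 counts and a fold of 2 were tried. Python 3.11.15, numpy 2.4.6, pandas 2.3.3, scipy 1.17.1, matplotlib 3.10.9, R 4.3.3 and edgeR 4.0.16 were used.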

Additional observations from a re-analysis of the deposited data

How the results depend on the processing

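Each comparison's median member ratio was recomputed under 10 alternatives, 9 of them planned and 1, classes of at least 20 cells with at least 90% of their hashtag counts on their own hashtag, chosen after seeing the data. By genotype on CDA-HFD the median ran from 0.803 to 0.835, and by diet it ran from 3.08 to 5.16 with both genotypes, from 3.36 to 6.83 in the controls and from 2.42 to 4.01 in the Lyz2-Cre mice, so these medians stayed on their side of 1 in each alternative. By genotype on ND it ran from 0.897 to 1.08, on both sides of 1. With at least 90% own hashtag and at least 50 cells, the medians by diet moved beyond their intervals to 5.16 with both genotypes and 6.83 in the controls, where 4 of 7 classes were left, without neutrophil-like, other macrophage-like and proliferating cells. Without the 1% of cells highest in the member, the median in the controls moved to 4.92; the cause was not tested. The number of members with the same highest class in both CDA-HFD mice was between 5 and 9, beside 7 as reported.

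Of the values for single members and for all genes, 424 stayed within their limits, 165 moved beyond them and none that was past the fold crossed to the other side of 1. Egr3 and Nr4a3 gave no value by genotype on ND as reported, and Nr4a2 gave one in 7 of 10 alternatives. With 1 mouse per group, no alternative measures the variation between mice, and sparse counts limit Egr3, Nr4a2 and Nr4a3 on ND.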
